A study of Mus musculus with 15 samples.

Results

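The BCL2 family genes described here are 10 members chosen by symbol, *Bcl2*, *Bcl2l1*, *Mcl1*, *Bcl2a1b*, *Bax*, *Bak1*, *Bcl2l11*, *Bid*, *Bbc3* and *Pmaip1*, out of 56832 genes in a bulk RNA-sequencing count table of cultured bone marrow mesenchymal stromal cells (MSCs). The rule that lists them uses no expression value, but the family was chosen with earlier results of these data known. The cells came from young adult mice on a C57BL/6J background that carried (TauT+/+) or globally lacked (TauT-/-) the taurine transporter TauT, which is encoded by *Slc6a6*. Marrow cells of every group were grown in the same medium with serum at low oxygen on collagen and were sorted magnetically as CD45- cells. The study's methods also name Ter119 and CD31 for its magnetic depletion and flow sorting as another way to enrich MSCs. The 15 libraries were labelled as 4 TauT+/+ male, 4 TauT-/- male, 3 TauT+/+ female and 4 TauT-/- female samples. The labels do not say whether each library came from a separate animal, so the p-values measure the spread between libraries.

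BCL2 family proteins decide whether the outer mitochondrial membrane of a cell is opened, the step that releases cytochrome c and starts caspase activation. The guardians BCL2, BCL-XL (encoded by *Bcl2l1*), MCL1 and A1 (encoded by the *Bcl2a1* copies) hold the effectors BAX and BAK in check. The BH3-only proteins BIM (*Bcl2l11*), BID, PUMA (*Bbc3*) and NOXA (*Pmaip1*) bind the guardians, and some of them also activate the effectors directly. MSCs depend on this balance for survival in the marrow, and A1 is best known from blood cells.

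Some libraries stood apart. Male-labelled libraries held 69764291 to 101575071 counts each and those labelled female 12761107 to 20781070, so depth and sex label cannot be told apart. Each label held both genotypes. The sex-linked genes of male TauT+/+ library 1, male TauT-/- library 1 and female TauT+/+ library 3 went against the label. Male and female library 1 of each genotype were nearly alike. The spread of their log2 ratios over 9102 genes (scaled median absolute deviation) was 0.0976 for TauT-/- and 0.108 for TauT+/+. Counting alone would give 0.0547 and 0.0575, and the next closest libraries had 0.253. The male-labelled library of each pair was also label-discordant, so by these genes each pair matched in sex. The libraries of a pair differed by more than counting noise. That excess cannot show whether they came from separate animals or cultures, which was not tested. They were kept as separate libraries, so sample sizes and p-values with all 15 libraries may count the same source repeatedly. The main results are also given without either library of each pair. *Slc6a6* itself had a log2 fold change of -0.97 (SE 0.36, edgeR adjusted p = 0.125), and its genotypes overlapped.

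Sums of cell type markers differed between libraries. The 15 stromal markers summed to 28511 to 47918 CPM (read counts after scaling every library to the same size) in TauT+/+ and 6382 to 40858 CPM in TauT-/- libraries. Of the 15, 4 had a fitted value above 0 and 0 passed the edgeR test (0.546% of all genes were called higher and 0.75% lower), with 5 at an unadjusted p under 0.05 (23.6% of all genes), while DESeq2 called 2 lower (6.31% of all genes). The 24 macrophage markers were all detected although the cells were sorted as CD45-. They summed to 1746 to 11667 CPM (median 10393) in TauT+/+ and 8445 to 30071 CPM (median 19993) in TauT-/- libraries, 23 of 24 had a fitted value above 0, and 2 of 24, *Cd68* and *Ctss*, rose with edgeR. Of the 24, 18 had an unadjusted p under 0.05, and DESeq2 called 11 higher (5.28% of all genes). Female TauT-/- library 4 had both the lowest stromal and the highest macrophage sum. Endothelial markers summed to 8.51 to 20.1 CPM in TauT+/+ and 12.2 to 111 CPM in TauT-/- libraries, and the 8 lymphocyte markers, of which 2 were at 0 in every library, never exceeded 0.563 CPM in sum. In female TauT-/- library 4, *Vwf* and *Kdr* held 73.1 and 29.9 CPM of the endothelial sum of 111 CPM. *Cdh5*, *Emcn* and *Tie1* were at most 0.70, 0.23 and 0.13 CPM in any library. Of the 8 neutrophil markers 2 passed the filter on low counts. Their sums were 4.40 to 20.9 CPM in TauT+/+ and 1.75 to 53.3 CPM in TauT-/- libraries. *Camp* held 20.6 CPM of the sum in male TauT+/+ library 2, and *S100a8* 49.8 CPM in female TauT-/- library 4. In bulk RNA, more cells of a type and more RNA per cell cannot be told apart.

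The sequences bear on which *Bcl2a1* copy was measured. *Bcl2a1b* is 1 of 4 near copies on chromosome 9, and over 516 coding bases it differs from *Bcl2a1a* at 11 positions (97.9% identity) and from *Bcl2a1d* at 6 positions (98.8% identity). The 3 copies differ at 12 positions in all and share an identical run of 217 bases, so reads inside that run cannot be assigned to a single copy. The first 90 coding bases are shown 5′ to 3′ because they hold 6 of the 12 positions. Capitals mark the positions at which the copies differ. They lie on GRCm39 at chr9:88839104-88839193 (plus strand), chr9:89081413-89081502 (plus strand) and chr9:88613683-88613772 (minus strand), in that order.
Bcl2a1a: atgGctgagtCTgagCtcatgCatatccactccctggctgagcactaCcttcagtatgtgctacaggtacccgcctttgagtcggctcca
Bcl2a1b: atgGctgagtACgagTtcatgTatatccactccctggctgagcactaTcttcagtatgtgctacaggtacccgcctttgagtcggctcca
Bcl2a1d: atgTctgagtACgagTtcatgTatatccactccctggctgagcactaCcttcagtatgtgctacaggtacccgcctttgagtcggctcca

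The promoters of the pair of guardian genes that differed most clearly by genotype are shown next, as RefSeq gives them on GRCm38.p6 from 250 bases before to 50 bases after a gene's start. All 9 members searched had at least 1 window. The *Bcl2a1b* window (chr9:89199023-89199322, plus strand) held the PU box letters GAGGAA, a core bound by PU.1-type factors of myeloid cells, 4 times over both strands, against at least 1 match in 28.3% of 32851 promoters. It held a kappaB-type match (GGG and CC with 5 bases between them) 2 times in overlapping positions, which also overlap a PU box, and 50.8% of promoters hold a match. The PU box was not particular to *Bcl2a1b*. The windows of its copies *Bcl2a1a* and *Bcl2a1d* held it 3 and 2 times. Those of *Bcl2*, *Bid* and *Bak1* held it 1 time each, and those of the other members searched did not hold it. Of 3 *Bcl2l1* windows, only the one shown (chr2:152830668-152830967, minus strand) held a match, with 2 of the kappaB type and no PU box. Capitals mark the matches, which are letter matches and not measured binding.
Bcl2a1b promoter: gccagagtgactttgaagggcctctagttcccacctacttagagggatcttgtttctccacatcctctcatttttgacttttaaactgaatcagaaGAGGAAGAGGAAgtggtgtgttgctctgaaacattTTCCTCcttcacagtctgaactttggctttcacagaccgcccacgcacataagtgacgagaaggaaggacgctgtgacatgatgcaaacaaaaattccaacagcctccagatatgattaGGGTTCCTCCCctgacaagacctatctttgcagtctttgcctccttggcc
Bcl2l1 promoter: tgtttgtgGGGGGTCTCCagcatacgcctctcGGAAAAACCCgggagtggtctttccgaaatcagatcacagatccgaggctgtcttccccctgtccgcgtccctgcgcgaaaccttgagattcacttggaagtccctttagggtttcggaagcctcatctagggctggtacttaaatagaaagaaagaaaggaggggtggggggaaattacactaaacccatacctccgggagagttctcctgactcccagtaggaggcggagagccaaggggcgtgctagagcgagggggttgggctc

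To ask whether loss of TauT changed the family, the genotypes were compared with edgeR's quasi-likelihood test, with labelled sex in the model and Benjamini-Hochberg adjustment over 17204 genes. *Bcl2l1* was the member called higher by edgeR with all 15 libraries, a call kept in 8 of 25 alternative fits. DESeq2 called both *Bcl2l1* and *Bcl2a1b* higher. Guardian genes held the 3 largest fitted changes of the 10 members, while the remaining guardian, *Bcl2*, was below the median of the 10, at 0.22. All 10 members passed the filter on low counts. 1 of 10 was called higher at an adjusted p under 0.05, where 0.546% of all genes were called higher, and 0 of 10 were called lower, where 0.75% of all genes were. 3 of 10 (*Bcl2l1*, *Bcl2a1b* and *Mcl1*) had an unadjusted p under 0.05, which held for 23.6% of all genes. DESeq2 called 2 of 10 higher and 0 lower, where it called 5.28% of all genes higher and 6.31% lower. All 10 fitted values were above 0, as were 48.3% of all genes, and their median log2 fold change was 0.25 against -0.015 over all genes.

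**Figure D1:**
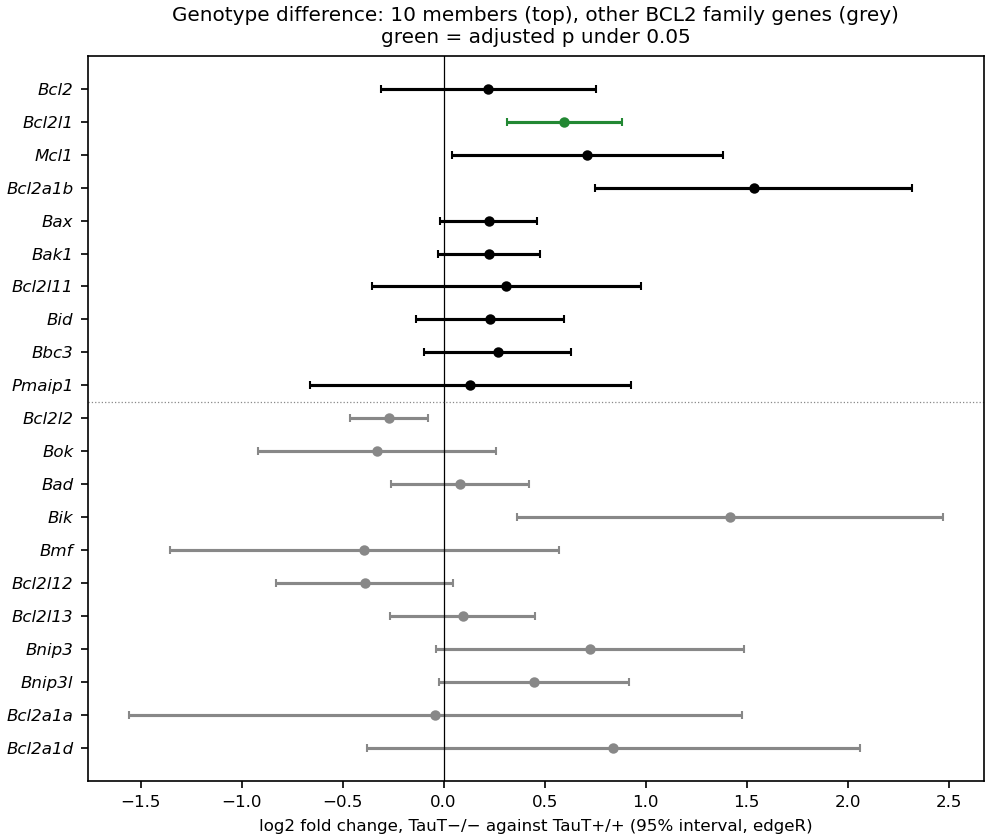
Log2 fold change of TauT-/- against TauT+/+ libraries on the x axis for the 10 members (top) and the other measured BCL2 family genes (grey, below the dotted line), with 95% intervals from edgeR. *Bcl2l1* (green) is the gene with an adjusted p under 0.05, and the intervals of *Bcl2l1*, *Mcl1*, *Bcl2a1b* and *Bik* lie above 0 and that of *Bcl2l2* below it.

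*Bcl2l1* encodes BCL-XL, a guardian that holds BAX and BAK inactive, and lies on chromosome 2 of GRCm39 from 152622582 to 152673655. In library order its CPM was 79.0, 56.1, 76.5 and 64.1 in TauT+/+ males and 74.4, 81.1 and 61.7 in TauT+/+ females. It was 91.4, 109, 81.8 and 124 in TauT-/- males and 97.0, 89.5, 148 and 119 in TauT-/- females. All 8 TauT-/- libraries were above all 7 TauT+/+ libraries. Such a lack of overlap was seen in 0.692% of all genes in this direction and in 0.436% in the other, where no member showed it. The gap between the closest libraries was narrow, from 81.1 to 81.8 CPM. The mean was 70.4 ± 9.67 CPM (SD, n = 7) against 107 ± 21.9 CPM (SD, n = 8), and the log2 fold change was 0.60 (SE 0.13, edgeR adjusted p = 0.0445). DESeq2 gave an adjusted p of 0.00161. The edgeR adjusted p was 0.0771 without the male-labelled and 0.103 without the female-labelled library of each near-identical pair. It was 0.155 without the 3 libraries that went against their sex label, and the log2 fold change was 0.65 each time. Over all genes, edgeR called only 2, 7 and 0 genes higher in these fits, in that order. With the replicate number as a block the edgeR adjusted p was 0.085. Of 15 fits that left out 1 library, 3 kept the call, and the log2 fold change ranged from 0.53 to 0.67.

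*Bcl2a1b* encodes A1, an NF-kB-induced guardian of blood cells, and lies on chromosome 9 of GRCm39 from 89081262 to 89089889. In library order its CPM was 2.32, 0.600, 2.53 and 2.29 in TauT+/+ males and 2.53, 2.37 and 6.17 in TauT+/+ females. It was 4.18, 4.43, 5.42 and 6.73 in TauT-/- males and 3.98, 11.5, 12.2 and 19.3 in TauT-/- females. The genotypes overlapped through female TauT+/+ library 3, one of those that went against the sex label, and the other 6 TauT+/+ libraries were below all TauT-/- libraries. The mean was 2.69 ± 1.68 CPM (SD, n = 7) against 8.47 ± 5.46 CPM (SD, n = 8). The log2 fold change of 1.53 (SE 0.37) was the largest of the family and missed the threshold with edgeR (adjusted p = 0.0558), while DESeq2 gave an adjusted p of 0.00159. It was 1.95 (SE 0.45, edgeR adjusted p = 0.152) without the 3 libraries that went against the label, and 1.63 and 1.57 (edgeR adjusted p = 0.0885 and 0.0974) without the male-labelled or female-labelled library of each near-identical pair.

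The other *Bcl2a1* copies were low. *Bcl2a1a* had 0.089 to 2.61 CPM with a log2 fold change of -0.04 (SE 0.71, edgeR adjusted p = 0.981), and *Bcl2a1d* had 0.089 to 2.76 CPM with a log2 fold change of 0.84 (SE 0.57, edgeR adjusted p = 0.385). *Bcl2a1c* did not pass the filter. Because the copies share sequence, how reads were split among them is uncertain. Of the exon bases of *Bcl2a1b*, 48.5% are also exon of *Gm29094* on the same strand in GENCODE M39, and *Gm29094* had 0 counts in every library. The methods do not say how reads in bases shared by both genes were counted. Some may have been left out, so the level of *Bcl2a1b*, also per length, is uncertain.

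**Figure D2:**
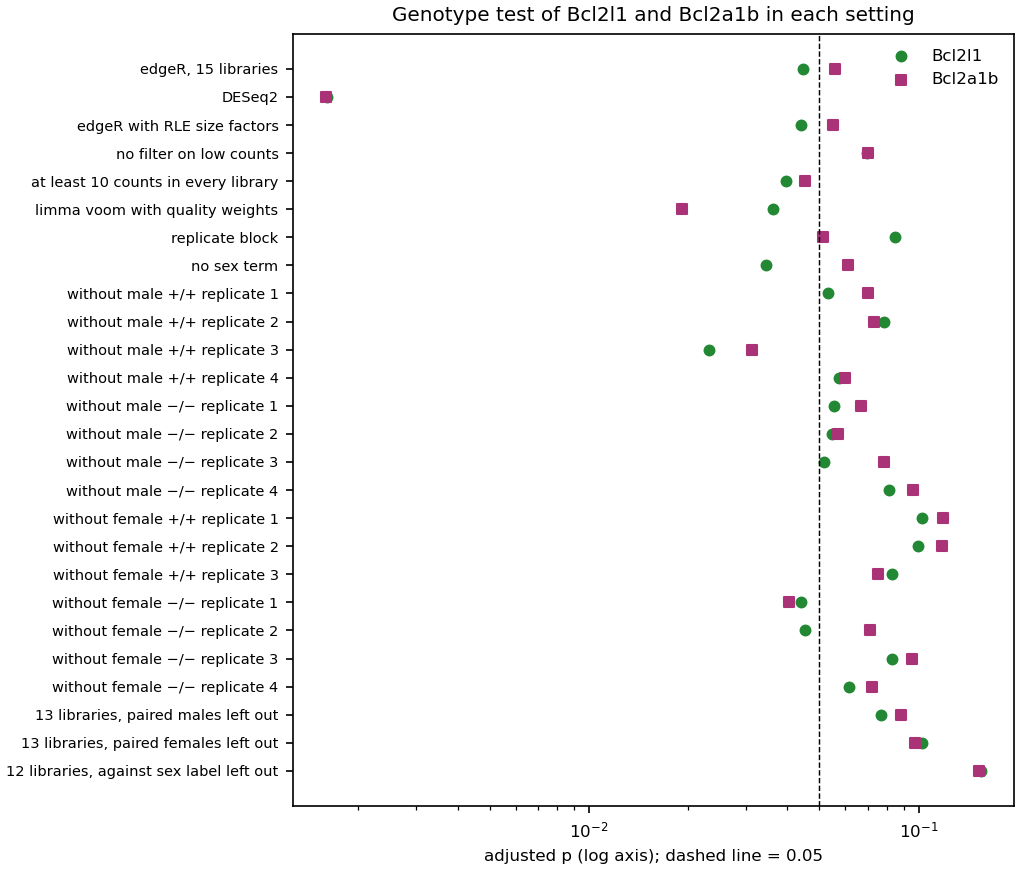
Adjusted p of the genotype test on a log x axis for *Bcl2l1* (circles) and *Bcl2a1b* (squares) in the fit of 15 libraries and 25 alternatives, with the threshold of 0.05 as a dashed line. *Bcl2l1* passes in 8 and *Bcl2a1b* in 5 of the 25 alternatives.

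*Mcl1* encodes a short-lived guardian that many cell types need. Levels in TauT+/+ males were 317, 196, 276 and 193 CPM in library order, and in TauT+/+ females 329.9, 302 and 299 CPM. Levels in TauT-/- males were 228, 339, 362 and 445 CPM, and in TauT-/- females 232, 434, 417 and 1369 CPM. The genotypes overlapped, since library 1 of both TauT-/- groups lay inside the TauT+/+ range, and female TauT-/- library 4 was far above every other library. The log2 fold change was 0.71 (SE 0.31, edgeR adjusted p = 0.188) with that library and 0.37 (SE 0.19, edgeR adjusted p = 0.248) without it. It was 0.89 and 0.82 without the male-labelled or female-labelled library of each near-identical pair and 0.91 without the 3 libraries that went against the sex label.

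*Bcl2*, the founding guardian gene of the family, had 17.7 to 33.9 CPM (median 27.2) in TauT+/+ and 20.1 to 64.0 CPM (median 24.4) in TauT-/- libraries. The TauT-/- median was the lower one, and male TauT-/- library 4, at 64.0 CPM, was far above the rest of its group at 21.4 to 24.4 CPM. The log2 fold change was 0.22 (SE 0.25, edgeR adjusted p = 0.620) with that library and -0.019 without it.

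**Figure D3:**
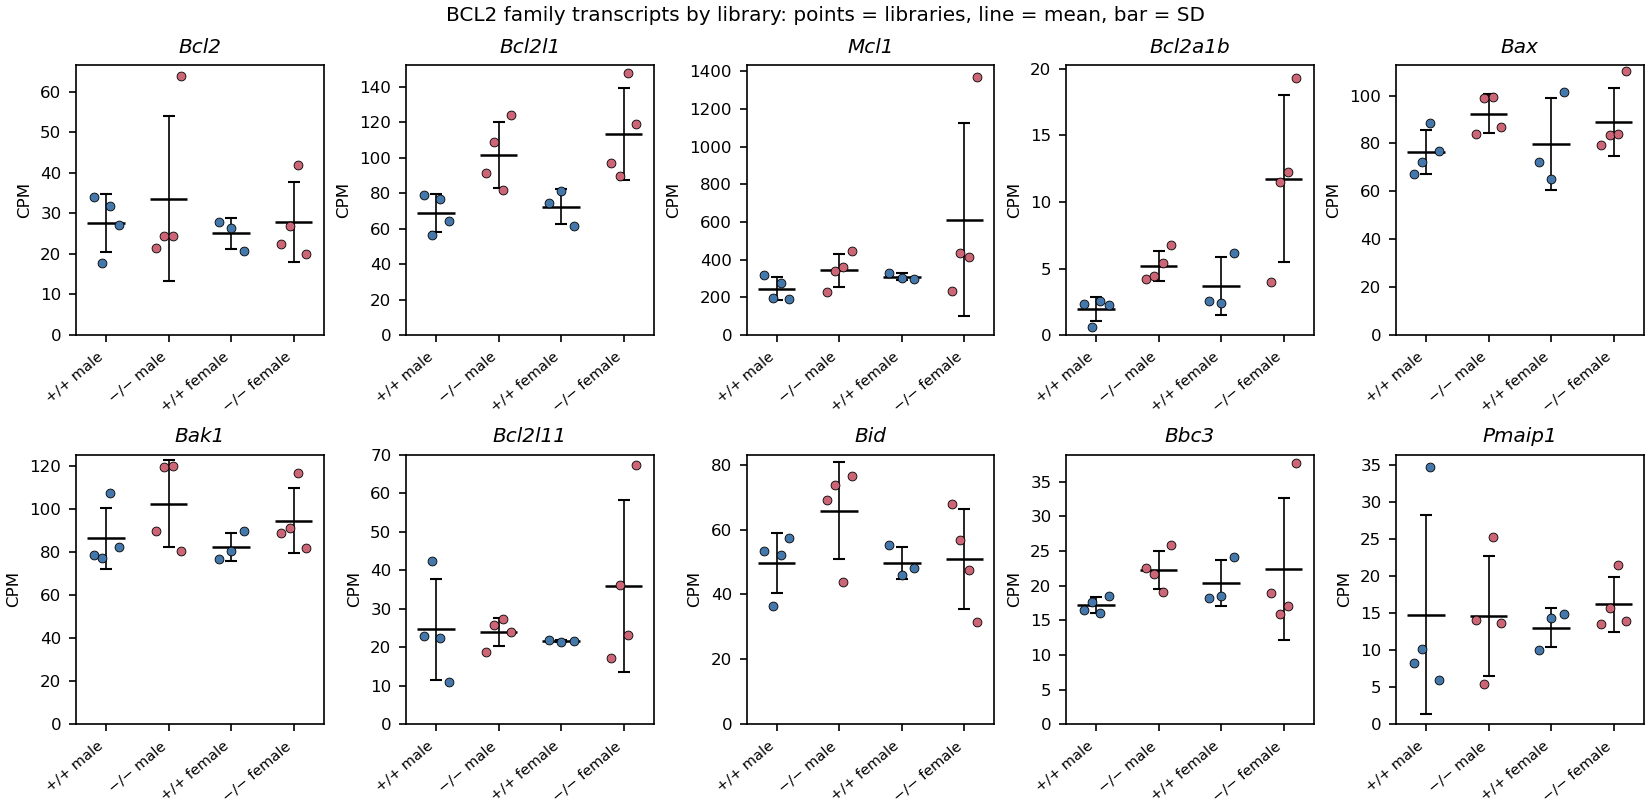
CPM of each member (y axis, from 0) in the 4 groups, with a point per library, the mean as a line and the SD as a bar. The *Bcl2l1* values of the TauT-/- libraries (red) all lie above those of the TauT+/+ libraries (blue), and single libraries stand apart for *Bcl2*, *Mcl1*, *Bcl2l11* and *Bbc3*.

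The effectors BAX and BAK form the pores of the outer membrane. *Bax* had 65.3 to 101.7 CPM (median 72.4) in TauT+/+ and 79.2 to 110.1 CPM (median 85.5) in TauT-/- libraries. Its log2 fold change was 0.22 (95% interval -0.02 to 0.46, edgeR adjusted p = 0.246). *Bak1* had 77.1 to 108 CPM (median 80.7) against 80.6 to 120.2 CPM (median 90.7), with the same log2 fold change of 0.22 (95% interval -0.03 to 0.48, edgeR adjusted p = 0.264). The genotypes overlapped for both genes. Both intervals include 0 but lie mostly above it, and they overlap the 95% interval of *Bcl2l1*, 0.31 to 0.88.

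None of the 4 BH3-only genes passed the test (edgeR adjusted p = 0.357 to 0.863, with 0 of 4 at an unadjusted p under 0.05 and 0 of 4 called by DESeq2). Over all genes, 23.6% had an unadjusted p under 0.05. The share called higher and lower was 0.546% and 0.75% with edgeR and 5.28% and 6.31% with DESeq2. *Bcl2l11*, which encodes the activator BIM, had 10.9 to 42.5 CPM in TauT+/+ and 17.2 to 67.3 CPM in TauT-/- libraries, and its log2 fold change of 0.31 (SE 0.31) was 0.078 without female TauT-/- library 4 and 0.54 without male TauT+/+ library 2. *Bbc3*, a p53 target that encodes PUMA, had 16.1 to 24.1 CPM against 15.8 to 37.6 CPM. Its log2 fold change of 0.27 (SE 0.17) was 0.12 without female TauT-/- library 4. The highest value of both genes came from the library with the highest macrophage and lowest stromal sum.

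*Bid*, which links death receptors to mitochondria, had 36.3 to 57.3 CPM in TauT+/+ and 31.6 to 76.5 CPM in TauT-/- libraries, a log2 fold change of 0.23 (SE 0.17). Of its exon bases, 31.2% lie opposite exons of *Bcl2l13*, whose mean was 41.3 CPM with TauT and 43.9 CPM without it. The counting used strand while the described library protocol names no step that marks it, so reads of these genes may not be fully separated. *Pmaip1*, which encodes the MCL1-binding protein NOXA, ranged from 5.96 to 34.8 CPM and from 5.48 to 25.3 CPM. Its log2 fold change of 0.13 (SE 0.37) was 0.58 without male TauT+/+ library 3 and -0.060 without male TauT-/- library 3.

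Within a sex label, edgeR called 0 of 10 members, as it called 0% of all genes, with 1483 of 17204 genes at an unadjusted p under 0.05 in male-labelled and 2518 in female-labelled libraries. DESeq2 also called 0 of 10 members under either label, where it called 0.202% of all genes higher and 0.264% lower in male-labelled and 1.23% higher and 1.29% lower in female-labelled libraries. The log2 fold change of *Bcl2l1* was 0.56 (SE 0.19, edgeR adjusted p = 0.564) in male-labelled and 0.64 (SE 0.20, edgeR adjusted p = 0.25) in female-labelled libraries. For *Bcl2a1b* the values were 1.42 (SE 0.51) and 1.66 (SE 0.57), and for *Bcl2l11* they were -0.04 (SE 0.41) and 0.73 (SE 0.45). The difference between the labels was called for 0 of 10 members by edgeR and by DESeq2, which called 0% of all genes higher and 0.00608% lower, and its smallest unadjusted edgeR p was 0.221, for *Bcl2l11*.

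Per length, *Mcl1* was the most abundant member. In CPM per kb of exon over all 15 libraries, its level was 109.6 ± 81.5 (SD), followed by *Bax* at 45.6 ± 7.14, *Bak1* at 38.3 ± 6.55, *Bcl2l1* at 17.5 ± 4.94 and *Bcl2a1b* at 6.99 ± 6.06. Each of the first 4 exceeded the next by more than the SD of their difference within libraries. *Bcl2a1b* and the members below it, *Bid* at 5.55, *Pmaip1* at 5.41, *Bbc3* at 4.29, *Bcl2* at 3.12 and *Bcl2l11* at 2.66, did not differ from their neighbours beyond that spread. *Bcl2a1b* averaged 3.25 in TauT+/+ libraries, below *Pmaip1* at 5.14, *Bid* at 5.08 and *Bbc3* at 3.87, and 10.3 in TauT-/- libraries, so its place depends on genotype. The order also depends on the length used. Per kb of coding sequence *Mcl1* stayed first at 385, *Bak1* at 124 and *Bcl2l1* at 118 came before *Bax* at 109.7, and *Bcl2a1b* was last at 11.2. Without the near-identical or label-discordant libraries the first 5 places per kb of exon were unchanged.

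**Figure D4:**
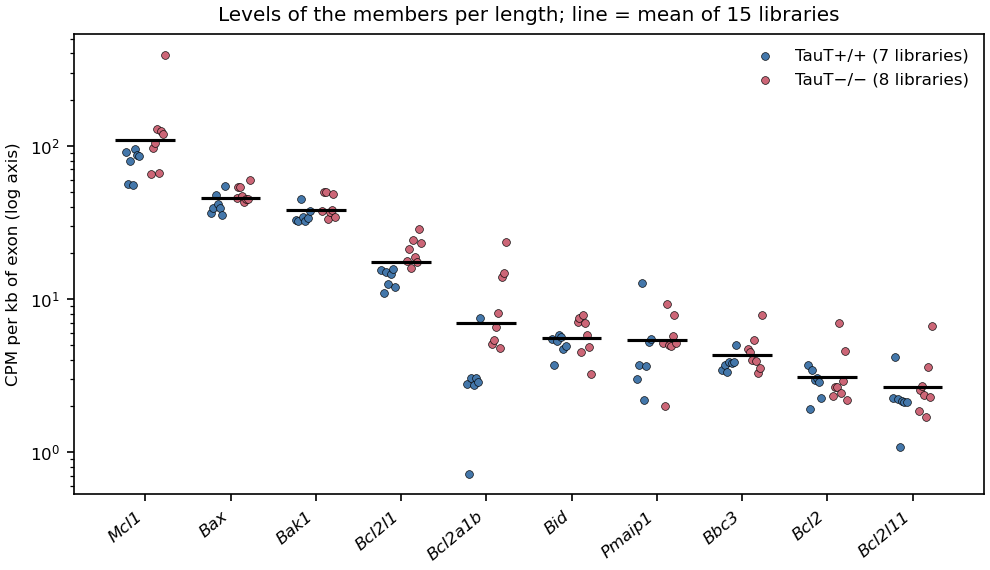
CPM per kb of exon on a log y axis for each member in the 7 TauT+/+ (blue) and 8 TauT-/- (red) libraries, with the mean of 15 libraries as a line. *Mcl1* is highest at 109.6 and *Bcl2l11* lowest at 2.66 on average.

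The balance between members was read as log2 ratios of CPM per kb of exon, given without a test. The size of a ratio depends on the length used, and per kb of coding sequence *Bcl2l1* came before *Bax*. The difference between genotypes does not depend on it, since the lengths are the same in every library. *Bax* to *Bcl2l1* averaged 1.61 ± 0.36 (SD, 7 libraries) with TauT and 1.24 ± 0.32 (SD, 8 libraries) without it. *Bax* to *Bcl2* was 3.88 ± 0.45 against 3.98 ± 0.65. *Bcl2l1* to *Bcl2* was 2.27 ± 0.19 against 2.74 ± 0.47. The ranges of the genotypes overlapped for all 3 ratios, with all libraries and without those that stood apart. The difference in *Bax* to *Bcl2* had no stable sign, at 0.10 with all libraries and -0.035 without the male-labelled library of each near-identical pair.

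The guardian genes *Bcl2a1b*, *Mcl1* and *Bcl2l1* varied with the marker sums of more than 1 cell type across libraries. The guardian gene *Bcl2* was not compared with these sums. Each r pools both genotypes, which also differ in the sums, and r within a genotype was not computed. Over 15 libraries, which share preparation and differ in depth by label, Pearson's r between the log2 macrophage sum and log2 CPM was 0.91 for *Bcl2a1b*, 0.76 for *Mcl1*, 0.71 for *Bcl2l1* and 0.24 for *Bcl2l11*. With the stromal sum, r was -0.73 for *Bcl2a1b*, -0.77 for *Mcl1* and -0.63 for *Bcl2l1*. With the endothelial sum, r was 0.75 for *Bcl2a1b*, 0.80 for *Mcl1* and 0.77 for *Bcl2l1*, the last 2 above their r with the macrophage sum. With the neutrophil sum, r was 0.71 for *Bcl2l11*. *Vwf* and *Kdr* made up much of the endothelial sum, and *Camp* and *S100a8* nearly all of the neutrophil sum, so these r describe few genes. Without female TauT-/- library 4, r with the macrophage sum was 0.90 for *Bcl2a1b*, 0.85 for *Mcl1*, 0.67 for *Bcl2l1* and -0.033 for *Bcl2l11*. In the same 14 libraries r with the endothelial sum was 0.65 for *Bcl2a1b*, 0.60 for *Mcl1* and 0.79 for *Bcl2l1*, r of *Mcl1* with the stromal sum was -0.45, and r of *Bcl2l11* with the neutrophil sum was 0.53. In the sets of 13 and 12 libraries r of *Bcl2a1b* with the macrophage sum was 0.92 to 0.94 and that of *Bcl2l1* 0.72 to 0.77. The part of these cells in the genotype differences was not tested. The genes most like *Bcl2a1b* by Pearson's r over the 15 libraries were *Fabp5* (0.97), ENSMUSG00000120999 (0.96) and *Rnf128* (0.96). Those most like *Bcl2l1* were *Ap5b1* (0.94), *Ppp1r13b* (0.94) and *Alcam* (0.93), and those most like *Mcl1* were *Abi1* (0.97), *C9orf72* (0.96) and *Grb2* (0.96). Among members, *Mcl1* and *Bcl2a1b* had an r of 0.77 and *Bcl2l11* and *Bid* an r of -0.62, which was -0.40 without female TauT-/- library 4.

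**Figure D5:**
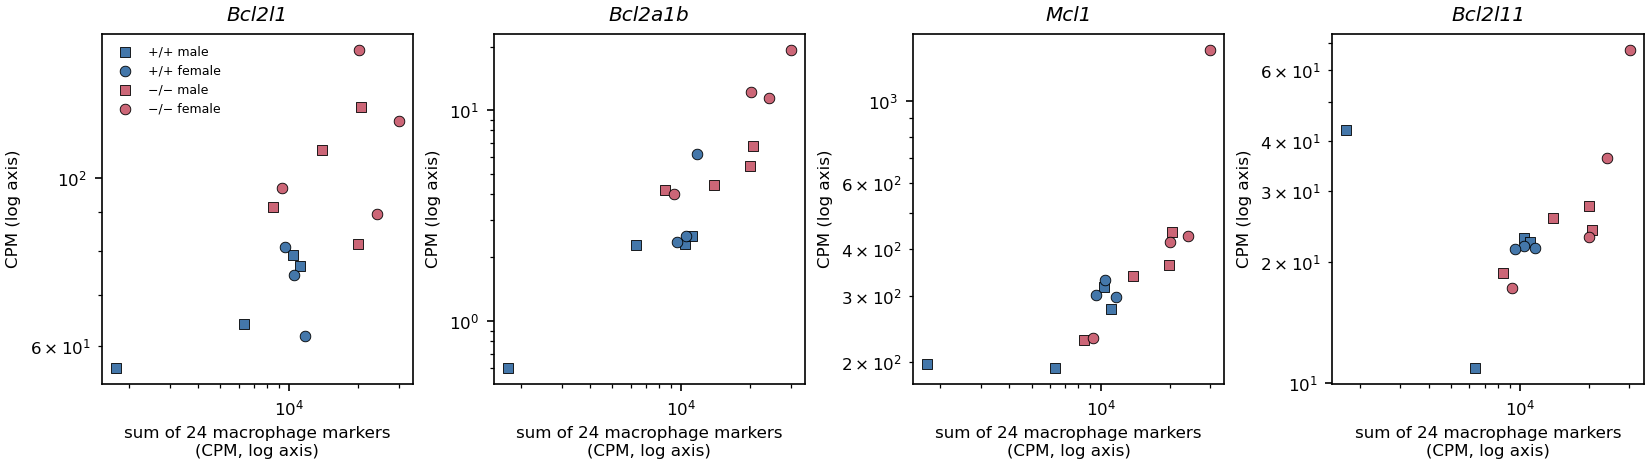
CPM of *Bcl2l1*, *Bcl2a1b*, *Mcl1* and *Bcl2l11* (log y axes) against the summed CPM of 24 macrophage markers (log x axis), with a point per library (squares male-labelled, circles female-labelled, blue TauT+/+, red TauT-/-). Of the 4 genes, *Bcl2a1b* has the highest r with the sum, at 0.91, and *Bcl2l11* the lowest, at 0.24.

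Around the family, 82 of 89 other listed apoptosis genes were tested. 0 were called higher and 1 lower by edgeR, against 0.546% and 0.75% of all genes, and 14 had an unadjusted p under 0.05, against 23.6% of all genes. DESeq2 called 2 higher and 3 lower, against 5.28% and 6.31% of all genes. The gene that fell was *Birc2*, which encodes the ubiquitin ligase cIAP1 of TNF receptor signalling. It had 20.9 to 47.3 CPM in TauT+/+ and 17.0 to 23.2 CPM in TauT-/- libraries, a log2 fold change of -0.78 (SE 0.14, edgeR adjusted p = 0.0293), and the genotypes overlapped through male TauT+/+ library 3. Its call held in 8 of 15 fits that left out 1 library. It was lost without a library of each near-identical pair and without the 3 libraries that went against the sex label. In those smaller sets edgeR called 0 of all genes lower.

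Of 16 other BCL2 family genes 11 were tested and 0 were called by edgeR, with 2 at an unadjusted p under 0.05 (23.6% of all genes). The guardian gene *Bcl2l2* had a log2 fold change of -0.27 (SE 0.09, edgeR adjusted p = 0.103). The BH3-only gene *Bik* had 2.7 ± 1.43 CPM (SD, n = 7) against 7.63 ± 4.66 CPM (SD, n = 8). Its log2 fold change was 1.42 (SE 0.49, edgeR adjusted p = 0.112), and DESeq2 called it higher (adjusted p = 0.0291). *Ripk1*, a kinase of death receptor complexes, had 62.8 to 76.9 CPM in TauT+/+ and 77.3 to 111 CPM in TauT-/- libraries without overlap. Of the 82 tested genes of these lists it was the 1 gene without overlap, which held for 0.692% of all genes in this direction. Its log2 fold change was 0.37 (SE 0.09, edgeR adjusted p = 0.0597), and DESeq2 called it higher (adjusted p = 0.00355). *Foxo1*, a transcription factor that can act on BH3-only genes, had a log2 fold change of -0.91 (SE 0.26, edgeR adjusted p = 0.0749), and DESeq2 called it lower (adjusted p = 0.0213). edgeR called 0 of 14 apoptosome and caspase genes, 0 of 10 outer membrane partners, 0 of 15 genes of p53 and its targets and 0 of 6 NF-kB subunits. At an unadjusted p under 0.05 were 1, 3, 2 and 1 of them, against 23.6% of all genes. DESeq2 called 1 of them, *Perp*, lower, against 6.31% of all genes.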

How the data were processed

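MSCs were sequenced in bulk in 15 libraries. Per the labels and methods, the authors made full-length cDNA with SMART-Seq mRNA LP, trimmed reads with fastp 0.23.1, mapped them with STAR 2.7.9a to GRCm39 with a GENCODE annotation, and counted reads by strand with featureCounts of Subread 2.0.1. The deposited table gives these counts of reads for 56832 genes without any scaling.

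The genotype tests ran in edgeR 4.0.16 under R 4.3.3 (TMM, filterByExpr, quasi-likelihood test, labelled sex and genotype in the model, Benjamini-Hochberg adjustment, threshold 0.05). Contrasts within a sex label and their difference used 1 term per group. DESeq2 1.42.0, limma 3.58.1 (voom with quality weights), RLE factors, no filter, at least 10 counts in every library, no sex term, a replicate block, and fits with 1 or more libraries left out were alternatives. Correlations, ratios and levels without the libraries that stood apart were added after seeing the data. Members and gene lists were chosen with earlier results of these data known. Besides the members, genes past the threshold are named, or those with the smallest p of a list. *Cd68*, *Ctss*, *Perp* and the *Bcl2a1* copies were named after their values were seen. The 3 genes most like a member were ranked by Pearson's r. Positions and lengths come from GENCODE M39 on GRCm39, and promoters from RefSeq on GRCm38.p6. The tests were tested on simulated data.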

Additional observations from a re-analysis of the deposited data

Results flagged for a closer look

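Of 33 sets of values with 4 libraries of a group, 3 had a library far from the others, where chance alone would flag about 1 in 20. Gaps and ranges were taken on the log2 scale of CPM. *Bcl2* was high in male TauT-/- library 4, at 64.0 CPM against 21.4 to 24.4 CPM in the others, a log2 gap of 0.88 of the log2 range of the group. *Bcl2a1b* was low in male TauT+/+ library 2, at 0.600 CPM against 2.29 to 2.53 CPM, a log2 gap of 0.927 of the log2 range. That library also had the lowest macrophage marker sum, and the part of those cells was not tested. *Bax* was high in female TauT-/- library 4, at 110.1 CPM against 79.2 to 83.8 CPM, a log2 gap of 0.83 of the log2 range.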

How the results depend on the processing

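The number of members called higher was 1 with edgeR on 15 libraries. It was 2 with DESeq2, with at least 10 counts in every library and with voom. It was 0 without a filter on low counts, without either library of the near-identical pairs and in 12 libraries. Few genes of any kind were called higher there. Without a filter it was 32 of 33207, and in 12 libraries 0 of 16211. Without the male-labelled library of each pair it was 2 of 14360, and without the female-labelled one 7 of 17552. Leaving out 1 library gave 0 to 2 members called higher, where 8 to 476 of all genes were. The count of members was 0 without male TauT+/+ library 1, 2 or 4, any male TauT-/- library or any female TauT+/+ library. It was also 0 without female TauT-/- library 3 or 4, and 2 without male TauT+/+ library 3 or female TauT-/- library 1. With the replicate block the count of members called higher was 0 and the adjusted p of *Bcl2l1* was 0.085. Same-numbered libraries had deviations correlated at 0.187 to 0.622 under the male label (4 pairs) and -0.040 to 0.277 under the female label (3 pairs), so the numbers were not taken as pairs. Of other apoptosis genes, 2 were called higher with DESeq2, 1 with voom and 1 without the sex term, and leaving out 1 library gave 0 to 1. For those called lower the number was 3 with DESeq2, 3 with voom, 2 with the replicate block and 0 to 1 when 1 library was left out. It was 0 in both sets of 13 and in 12 libraries, where 0 of all genes were called lower. The fitted value ranged from -0.019 (without male TauT-/- library 4) to 0.33 for *Bcl2* and from -0.060 (without male TauT-/- library 3) to 0.58 for *Pmaip1* when 1 library was left out. With coding length in place of exon length, levels in CPM per kb were 385 for *Mcl1*, 109.7 for *Bax*, 124 for *Bak1*, 118 for *Bcl2l1*, 80.6 for *Bid*, 47.8 for *Pmaip1*, 32.1 for *Bbc3*, 39.4 for *Bcl2*, 35.8 for *Bcl2l11* and 11.2 for *Bcl2a1b*, because untranslated exon is left out, so *Bak1* and *Bcl2l1* came before *Bax* and *Bcl2a1b* was last. Calls over all genes were 94 higher and 129 lower with edgeR, 952 and 1139 with DESeq2, 611 and 708 with voom, 32 and 42 without a filter, and 188 and 258 without the sex term. Depth limits the lowest member, *Bcl2a1b*, which had as few as 31 counts in a library.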
